A study of Canis lupus familiaris with 8 samples.

Results

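The genes described here encode the proteins of the ribosomes of the cytosol and of the ribosomes inside mitochondria, measured in the mitral valve leaflets of dogs. They were chosen by name. A probe set was taken where the array's annotation gave it 1 gene symbol beginning with RPL or RPS, for the cytosolic large and small subunits, or with MRPL or MRPS, for the mitochondrial large and small subunits, followed by a digit. RPSA, RPLP1 and RPLP2 were added, and kinases named RPS6K were left out. This gave 121 genes, 67 cytosolic and 54 mitochondrial, of the 6540 genes that the array names with 1 symbol. They have 261 probe sets, and each gene is described by its brightest probe set unless stated otherwise. Of the 121 genes, 119 were bright enough to be tested, among 5438 genes tested. The other two, RPL31 and RPS6, had only dim probe sets. Probe sets for RPLP0, RPL22L1, RPL7L1 and MRPL12 under 1 symbol were not analysed here, and 45 probe sets that carry several symbols were left out. The name rule also took in RPS19BP1, which encodes a protein that binds RPS19 and is not a subunit, and RPL18P, which RefSeq lists as a pseudogene.

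Total RNA came from frozen anterior mitral valve leaflets of 8 dogs, with 1 Affymetrix array per dog. The 4 control dogs were beagle crosses. The other 4 had degenerative mitral valve disease (DMVD), in which the leaflets thicken and distort. Affected 1 was a Lhasa apso, affected 3 a Dachshund, and both affected 2 and affected 4 were Miniature poodles. No breed was in both groups, so breed cannot be told apart from disease, and the labels give no ages. The labels call the arrays biological replicates, so each p-value is read against the spread between these dogs. Because whole leaflets were measured, a change in the number of cells of a type and a change in RNA per cell cannot be told apart.

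Cytosolic ribosomes translate the messenger RNAs made in the nucleus. Their protein genes are among the most strongly expressed in nearly every cell, are translated under the control of MTOR signalling, and have many processed pseudogenes and near-identical copies in mammalian genomes. Mitochondrial ribosomes are a separate set of particles, whose proteins are also encoded in the nucleus and which translate the few oxidative phosphorylation subunits that mitochondrial DNA encodes. Tissues rich in mitochondria, such as heart muscle, need much of that translation.

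The arrays differed in the signal of cell type markers. The trimmed mean of each array was 500.1, and array medians lay between 124 and 192 signal units. Control 2 stood apart: the mean log2 signal of 9 fibroblast and valve interstitial markers was 11.18 there and 13.12 to 13.69 in the other 7 dogs, and that of 16 heart muscle markers was 13.82 there and 10.18 to 13.18 in the others. Control 2 was the highest dog for 12 of the 16 heart muscle markers. The mean of 16 macrophage markers was 6.46 to 9.68 in control dogs and 9.81 to 11.06 in affected dogs, without overlap. The mean of 7 endothelial markers was 9.52 to 9.96 in control dogs and 10.41 to 10.66 in affected dogs, also without overlap. No probe set on the array was called between the groups at an adjusted p of 0.05 (limma, 0% of 14705 tested, smallest adjusted p 0.238).

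None of the ribosomal protein genes passed that test, and the lean of each class to one side came mainly from a single dog. The cytosolic genes leaned above 0 (affected minus control), with a median log2 difference of 0.14, and the mitochondrial genes leaned below it, with a median of -0.19. For the cytosolic genes the high dog was affected 1, and for the mitochondrial genes it was control 2. With that dog left out, each median was near 0.

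The cytosolic class had a mean log2 signal of 12.51, 12.53, 12.65 and 12.79 in controls 1 to 4 and of 13.12, 12.55, 12.59 and 12.70 in affected dogs 1 to 4. Affected 1 was above all other dogs, and the other 3 affected dogs lay within the range of the controls, so the groups overlapped. The group means were 12.62 ± 0.13 in control dogs and 12.74 ± 0.26 in affected dogs (SD, n = 4 each). Gene by gene, affected 1 gave the highest of the 8 values for 46 of 65 genes (70.8%), where it was the highest dog for 15.8% of all tested probe sets. It was above the gene's mean over the 8 dogs for 58 of 65. The pattern held in both subunits, with affected 1 highest for 27 of 39 large-subunit genes and 19 of 26 small-subunit genes. The macrophage marker mean was also highest in affected 1, at 11.06, and 10 of its 16 markers were highest there. Its part in the ribosomal protein signal was not tested. The lowest value was most often in affected 2 (21 genes) or control 1 (20 genes).

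The mitochondrial class had a mean log2 signal of 9.67, 10.19, 9.47 and 9.66 in controls 1 to 4 and of 9.50, 9.47, 9.51 and 9.76 in affected dogs 1 to 4. Control 2 was above all other dogs, and the remaining 7 lay between 9.47 and 9.76 whatever their group. The group means were 9.75 ± 0.31 in control dogs and 9.56 ± 0.13 in affected dogs (SD, n = 4 each), and the groups overlapped. Control 2 was the highest dog for 32 of 54 genes (59.3%), against 19.2% of all tested probe sets. It was the highest for 20 of 33 large-subunit genes and 12 of 21 small-subunit genes. Affected 1, the high dog of the cytosolic class, was highest for 8 mitochondrial genes, MRPL2, MRPL14, MRPL23, MRPL24, MRPL27, MRPL38, MRPS9 and MRPS26.

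**Figure D1:**
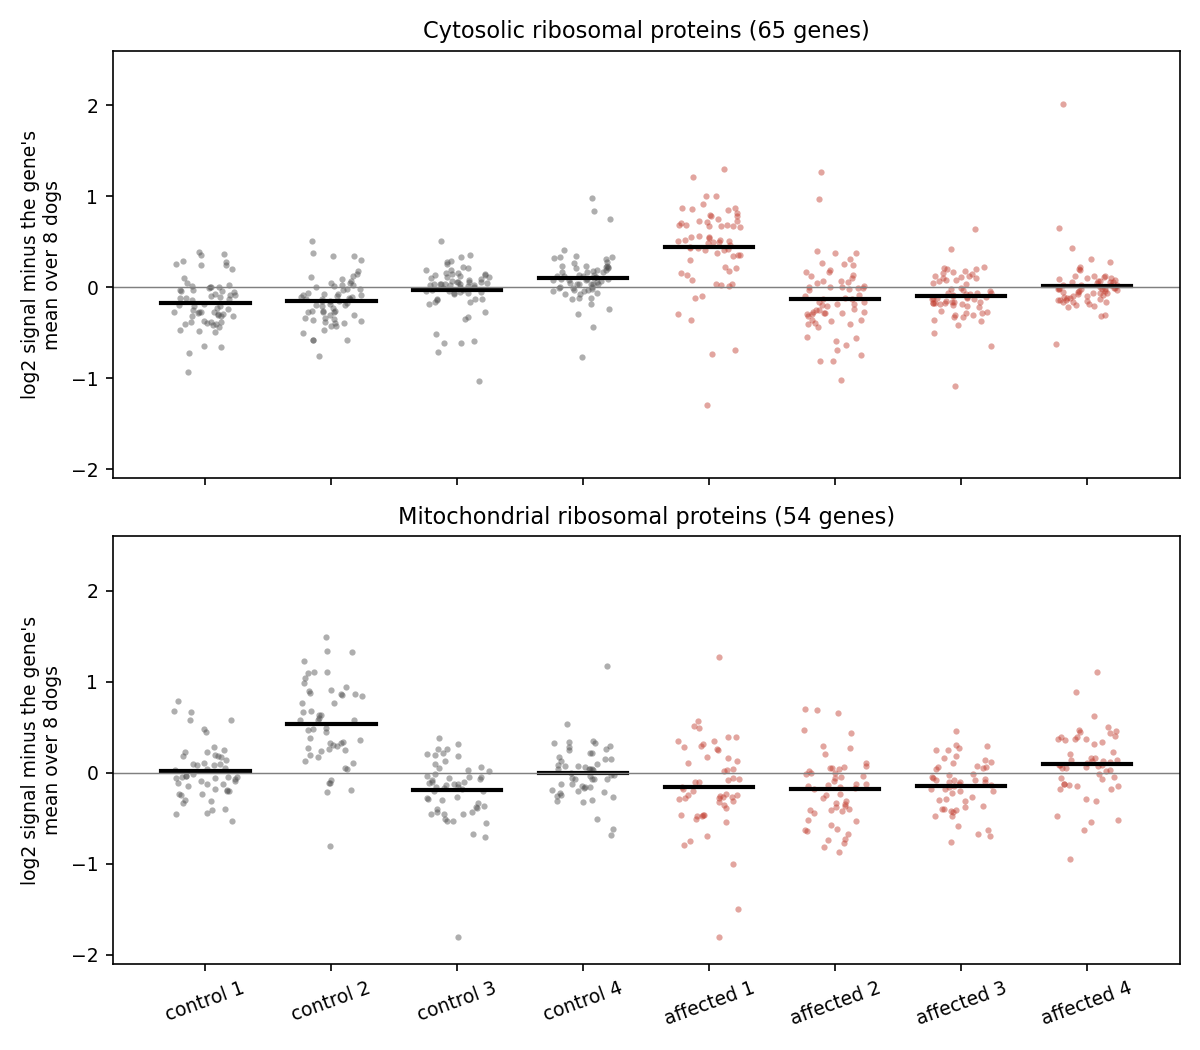
Each point is 1 gene in 1 dog, as its log2 signal minus that gene's mean over the 8 dogs (vertical axis), with control dogs in grey, affected dogs in red and a black bar at the mean over genes. The cytosolic mean is 0.44 above 0 in affected 1, and the mitochondrial mean is 0.53 above 0 in control 2.

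The genes of the respiratory chain were also highest in control 2. The 50 tested oxidative phosphorylation subunits had a mean log2 signal of 12.82 in control 2 and of 10.99 to 11.56 in the other 7 dogs, and 47 of the 50 were highest in control 2. Of these subunits, 47 of 50 were below 0 in affected minus control, with a median of -0.42. Without control 2 the median was -0.057 and 31 of 50 were below 0. The mitochondrial ribosomal proteins stood out less in control 2 than the respiratory subunits did: their mean was 0.53 above the mean of the 8 dogs, against 1.33 for the subunits. With the mean signal of the heart muscle markers as a covariate, 35 of 54 mitochondrial ribosomal protein genes were below 0, with a median of -0.11. Affected 2 had the next highest mean of the heart muscle markers, 13.18. Its mitochondrial ribosomal protein mean was 9.47, and it was the lowest dog for 16 of the 54 genes. What part the muscle content of a leaflet has in its mitochondrial ribosomal protein signal was not tested further.

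The cytosolic genes lie at the bright end of the array. Of the 65 tested, 49 had a brightest probe set within the top 2% of all probe sets, and 0 of the 54 mitochondrial genes did. On each array 66 to 79 cytosolic probe sets fell among the 478 brightest, which the scaling of the arrays leaves out of its trimmed mean. Cytosolic probe sets made up 6.27%, 5.90%, 6.79% and 7.24% of all signal in controls 1 to 4 and 8.24%, 5.66%, 6.45% and 6.56% in affected dogs 1 to 4. Affected 1 was the highest and affected 2 the lowest, so the groups overlapped. The mitochondrial share was 0.372%, 0.495%, 0.316% and 0.343% in the controls and 0.311%, 0.300%, 0.327% and 0.372% in the affected dogs, highest in control 2.

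Other bright genes were also high in affected 1. For 47 cytosolic genes with a mean log2 signal of 13 or more, affected 1 stood 0.50 above the mean of the 8 dogs and was highest for 40. Among 154 other named probe sets of that brightness, it stood 0.35 above and was highest for 69. For the 18 dimmer cytosolic genes it stood 0.27 above and was highest for 6. After quantile normalization, which gives every array the same distribution of signals, 33 of 65 cytosolic genes were above 0, which is 50.8% in place of 72.3%, and their median was 0.00. What the bright end of the affected 1 array adds to its ribosomal protein signal was not tested beyond these values.

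The comparison of affected with control dogs was fitted gene by gene with limma. Of 65 cytosolic genes, 47 had a difference above 0 and 18 below, where 50.5% of all tested probe sets were above 0 and 49.5% below. The median difference was 0.14, against 0.0065 over all tested probe sets, with quartiles of -0.053 and 0.24. For 45 of the 65 the difference was smaller than its own standard error. The large and small subunits were alike in this: the median was 0.15 over 39 large-subunit genes, with 29 above 0, and 0.12 over 26 small-subunit genes, with 18 above 0. With the array medians set equal in place of the trimmed means, 42 were above 0, with a median of 0.061 where the median of all tested probe sets was -0.067.

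Of the 54 mitochondrial genes, 42 were below 0 (77.8%) and 12 above. Their median difference was -0.19, with quartiles of -0.33 and -0.025, and for 37 of the 54 the difference was smaller than its standard error. The median was -0.22 over 33 large-subunit genes, with 26 below 0, and -0.13 over 21 small-subunit genes, with 16 below 0. The standard errors set what these arrays could resolve: the 95% interval of a difference reached 0.56 to either side in the median cytosolic gene and 0.64 in the median mitochondrial gene.

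Leaving out 1 dog at a time showed on which dogs the medians rest. Without affected 1 the cytosolic median was -0.017 and 28 of 65 genes were above 0, and without any other dog it lay between 0.085 and 0.23. Without control 2 the mitochondrial median was -0.0079 and 28 of 54 genes were below 0, and without any other dog it lay between -0.29 and -0.16.

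**Figure D2:**
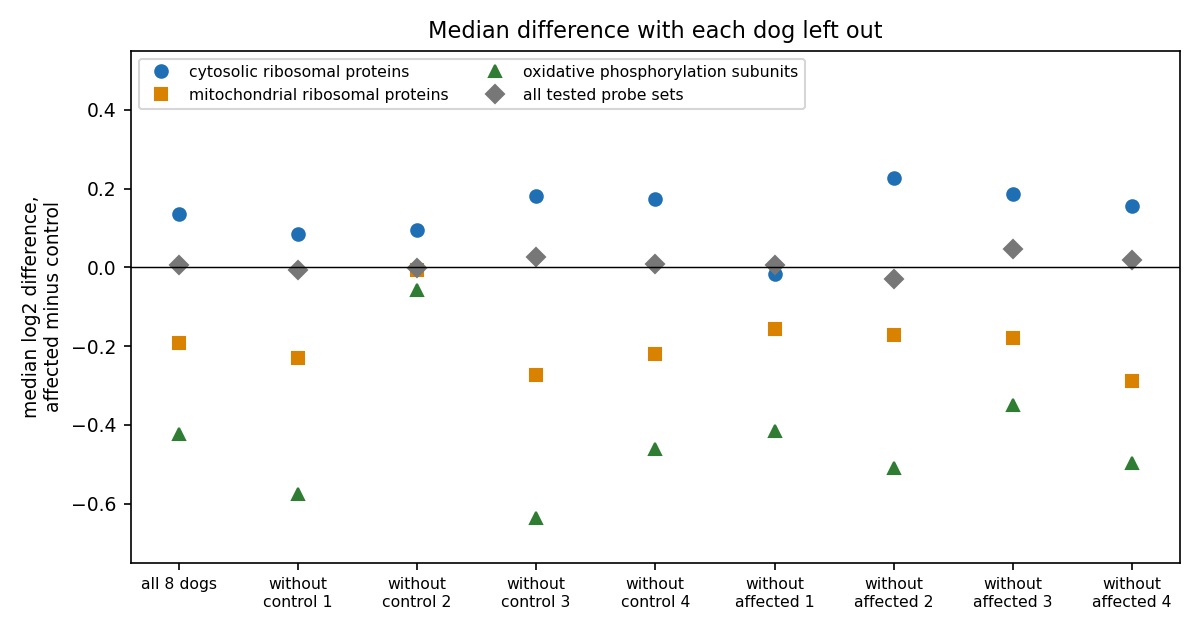
The vertical axis is the median log2 difference (affected minus control) over the genes of each group, with all 8 dogs and with each dog left out in turn (horizontal axis). The cytosolic median goes from 0.14 to -0.017 without affected 1, and the mitochondrial median from -0.19 to -0.0079 without control 2.

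A measure within each array was the mean log2 signal of the mitochondrial genes minus that of the cytosolic genes, in which a factor common to the whole array cancels. It was -2.84, -2.34, -3.19 and -3.13 in controls 1 to 4 and -3.61, -3.08, -3.07 and -2.94 in affected dogs 1 to 4. Control 2 was highest and affected 1 lowest, and the remaining 6 dogs were mixed between the groups. The means were -2.87 ± 0.39 and -3.18 ± 0.30 (SD, n = 4 each), a difference of -0.30 that became -0.13 without control 2 and -0.16 without affected 1. Only differences between dogs can be read from it, since signals of different probe sets are not on a common scale. An array effect that differs with brightness does not cancel in it. The median gene had a mean log2 signal of 13.61 in the cytosolic class and 9.76 in the mitochondrial class.

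**Figure D3:**
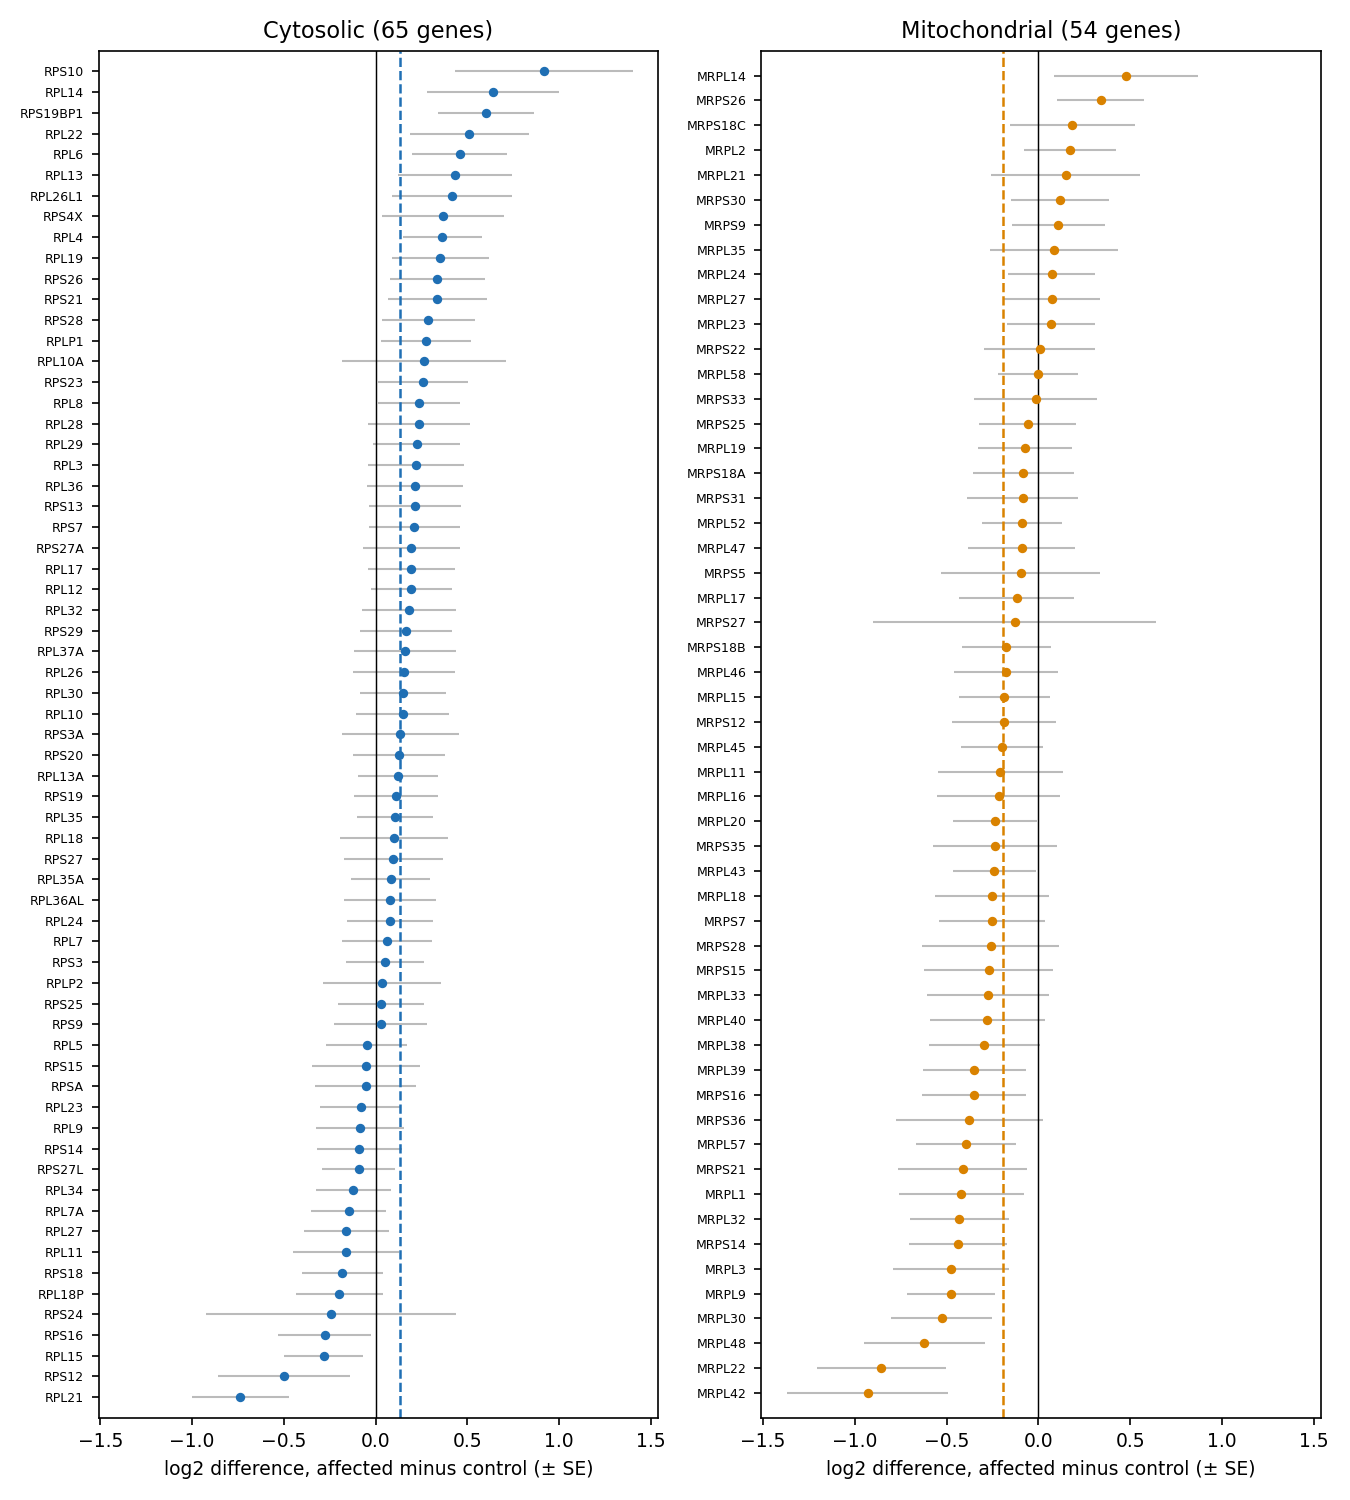
Each point is the log2 difference of 1 gene (affected minus control, horizontal axis) with its limma standard error as a bar, ranked within the cytosolic genes (left) and the mitochondrial genes (right), and the dashed line is the median. The medians are 0.14 and -0.19, and none of the 119 genes passed at an adjusted p of 0.05.

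Single genes were read against the share of all probe sets past the same limits. At an unadjusted p of 0.05, 1 cytosolic gene was higher (RPS19BP1) and 1 lower (RPL21) of 65, and 0 mitochondrial genes were higher and 1 lower (MRPL22) of 54. Over all tested probe sets 4.02% were higher and 3.81% lower by that limit, so fewer members than that share passed on each side. The groups did not overlap for 1 cytosolic gene on the higher side (RPS19BP1), 1 on the lower side (RPL21) and 1 mitochondrial gene on the lower side (MRPL9), where the shares over all probe sets were 2.35% higher and 2.31% lower. The smallest adjusted p was 0.566 among cytosolic genes and 0.614 among mitochondrial genes (limma).

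Among the large-subunit proteins of the cytosolic ribosome, RPL21 had the lowest difference. Its log2 signal was 10.57, 10.72, 10.49 and 10.56 in controls 1 to 4 and 9.52, 9.40, 10.38 and 10.07 in affected dogs 1 to 4. Every affected dog was below every control dog, affected 3 by the least. The difference was -0.74 ± 0.26 (SE), a signal 1.67 times as high in control dogs, with an unadjusted p of 0.0185 and an adjusted p of 0.566 by limma. The second RPL21 probe set gave 0.35 ± 0.41, in the other direction, with its highest value in affected 1.

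RPL6 and RPL4, also of the large subunit, had the smallest p-values among bright genes above 0. RPL6 was 13.97, 14.11, 14.24 and 14.25 in the controls and 15.25, 14.63, 14.20 and 14.33 in the affected dogs, a difference of 0.46 ± 0.26. RPL4 was 13.55, 13.61, 13.65 and 13.80 in the controls and 14.30, 14.21, 13.67 and 13.89 in the affected dogs, a difference of 0.36 ± 0.22. In both genes affected 1, 2 and 4 were above all controls, and affected 3 lay among them. On a dim probe set, RPL14 was 6.91, 7.85, 7.39 and 6.78 in the controls and 8.06, 8.52, 7.66 and 7.25 in the affected dogs, which overlap, with a difference of 0.64 ± 0.36. None of these 3 genes passed, with adjusted p-values of 0.683, 0.698 and 0.684 by limma in that order.

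RPL3, which shapes the peptidyl transferase centre, was 0.22 ± 0.26 higher in the mean of affected dogs, less than its error. RPL22, a subunit that also binds structured RNAs outside the ribosome, was measured on a dim probe set. It was 7.32, 6.74, 6.61 and 7.60 in the controls and 8.003, 7.63, 7.52 and 7.16 in the affected dogs, a difference of 0.51 ± 0.32 with overlap. RPL26L1, a close relative of RPL26, differed by 0.42 ± 0.33, and RPL26 itself by 0.15 ± 0.28. RPL15 was below 0, at -0.28 ± 0.22, and its lowest values were those of affected 2 (13.59) and affected 1 (13.67) against 14.07 to 14.35 in the other 6 dogs. RPL11, which can bind the p53 regulator MDM2, differed by -0.16 ± 0.29 on a dim probe set. Of the stalk proteins that recruit translation factors, RPLP1 differed by 0.27 ± 0.24 and RPLP2 by 0.035 ± 0.32, neither past the test. RPLP2 ranged more widely among affected dogs (12.39 to 13.96) than among controls (12.82 to 13.44).

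Of the small-subunit genes, RPS10 had the highest difference of all members, on a dim probe set with a mean log2 signal of 7.91. It was 6.98, 7.81, 6.88 and 8.15 in the controls and 9.21, 9.18, 7.49 and 7.60 in the affected dogs. Affected 1 and affected 2 were above every control, and affected 3 and 4 lay among the controls. The difference was 0.92 ± 0.48, with an adjusted p of 0.667 by limma. RPS19BP1, the binding partner of RPS19 taken in by its name, was 8.90, 8.81, 8.43 and 8.72 in the controls and 9.87, 8.93, 9.22 and 9.24 in the affected dogs. Every affected dog was above every control, affected 2 by the least. The difference was 0.60 ± 0.26, with an unadjusted p of 0.0439 and an adjusted p of 0.627 by limma, and without RPS19BP1 and RPL18P 0 cytosolic genes were higher at the unadjusted limit.

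The brightest small-subunit genes, RPS27A and RPS28, showed the affected 1 pattern on their brightest probe sets. RPS27A, which is made as a fusion with ubiquitin, was 14.20, 14.56, 14.63 and 14.55 in the controls and 15.36, 14.49, 14.31 and 14.56 in the affected dogs. RPS28 was 13.996, 14.30, 14.58 and 14.43 in the controls and 15.21, 14.46, 14.35 and 14.44 in the affected dogs. In both genes affected 1 stood alone and the other 3 affected dogs lay within the control range, and the differences of 0.20 ± 0.26 for RPS27A and 0.29 ± 0.25 for RPS28 were -0.033 and 0.090 without that dog. RPS4X, a dimmer member whose gene lies on the X chromosome, was 8.70, 9.20, 9.02 and 9.76 in the controls and 10.36, 9.35, 9.19 and 9.26 in the affected dogs, again with affected 1 alone above the rest. Other probe sets of these genes differed: 2 of 3 for RPS28 were below 0, down to -0.51, and the second for RPS4X gave -0.39.

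RPSA, a subunit that is also known as a laminin receptor, did not have affected 1 as its highest dog. It was 13.61, 12.99, 13.53 and 13.63 in the controls and 13.59, 12.73, 13.54 and 13.70 in the affected dogs. Control 2 and affected 2 were low and the other 6 dogs lay between 13.53 and 13.70, and the difference was -0.054 ± 0.27. The same 2 dogs were the lowest for some other cytosolic genes, RPL18, RPLP2 and RPS15 among them, so this was not particular to RPSA. These were also the 2 dogs with the highest heart muscle markers, at 13.82 and 13.18, and a link was not tested. RPS27 differed by 0.096 ± 0.27 and its relative RPS27L, which is induced by p53, by -0.092 ± 0.20. RPS12 was below 0 at -0.50 ± 0.36, with its lowest values in affected 1 (10.78) and affected 2 (10.50), which were the high dogs for RPS10. RPS24 ranged from 5.63 in affected 1 to 8.94 in affected 4 on a dim probe set, with a difference of -0.24 ± 0.68.

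Among the mitochondrial large-subunit genes, MRPL22 had the smallest p. It was 8.72, 9.04, 7.89 and 7.78 in controls 1 to 4 and 7.24, 7.31, 8.07 and 7.39 in affected dogs 1 to 4. Affected 1, 2 and 4 were below every control and affected 3 lay among them. The difference was -0.86 ± 0.35, a signal 1.81 times as high in control dogs, with an unadjusted p of 0.0345 and an adjusted p of 0.614 by limma. MRPL42 was 10.20, 10.96, 9.24 and 9.96 in the controls and 8.13, 9.26, 9.93 and 9.32 in the affected dogs, a difference of -0.93 ± 0.44 with overlap, and its second probe set gave -0.35 ± 0.30.

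MRPL9 was the 1 mitochondrial gene whose groups did not overlap. It was 10.76, 10.64, 10.79 and 10.89 in the controls and 10.27, 9.81, 10.46 and 10.64 in the affected dogs. Affected 4 was just under control 2, and affected 2 was farthest below. The difference was -0.48 ± 0.24, with an unadjusted p of 0.0724 and an adjusted p of 0.660 by limma. Control 2 was the lowest of the controls here, and the MRPL9 difference was -0.52 without that dog and -0.31 without affected 2.

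MRPL30 was 10.20, 9.90, 9.46 and 9.55 in the controls and 8.98, 8.88, 9.62 and 9.53 in the affected dogs, a difference of -0.53 ± 0.28. Here affected 1 and affected 2 were low and affected 3 and 4 lay among the controls. MRPL3 gave a like order, with 9.37 and 9.97 in affected 1 and 2 against 10.34 to 10.96 in the other 6 dogs, and a difference of -0.48 ± 0.31. MRPL48 was 9.57, 10.87, 9.35 and 9.63 in the controls and 9.37, 9.14, 9.18 and 9.26 in the affected dogs. Its difference of -0.62 ± 0.33 rests mostly on control 2 and was -0.28 without that dog.

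MRPL40 and MRPL33 were also highest in control 2. MRPL40 was 11.98 in control 2 and 10.51 to 11.24 in the other dogs, and its difference of -0.28 ± 0.31 was -0.0086 without control 2. MRPL33 was 9.92 in control 2 and 8.38 to 9.25 in the others, with -0.27 ± 0.33 becoming 0.014. MRPL15 differed by -0.19 ± 0.25. MRPL14 was the highest of the class above 0, at 10.73, 10.26, 11.45 and 10.87 in the controls and 12.34, 11.37, 10.97 and 10.55 in the affected dogs, a difference of 0.48 ± 0.39 led by affected 1, while its other tested probe sets gave -0.17 ± 0.32 and -0.27 ± 0.30.

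The mitochondrial small-subunit genes lay nearer to 0. MRPS14 was 9.57, 9.74, 9.47 and 10.02 in the controls and 9.21, 8.75, 9.73 and 9.36 in the affected dogs, a difference of -0.44 ± 0.27. Affected 1, 2 and 4 were below every control, and affected 3 was among them. MRPS12, which belongs to the decoding centre, was 10.39 in control 2 and 9.64 to 9.72 in the other controls, and 10.11, 9.74, 9.67 and 9.13 in the affected dogs, a difference of -0.19 ± 0.28. MRPS35 differed by -0.24 ± 0.34 and was 9.47 in control 2 against 7.91 to 8.51 elsewhere. MRPS5 and MRPS18C, on dim probe sets, differed by -0.096 ± 0.43 and 0.19 ± 0.34. MRPS27 could hardly be measured, with control 3 and affected 1 set to the floor of 5.10 and a difference of -0.13 ± 0.77.

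**Figure D4:**
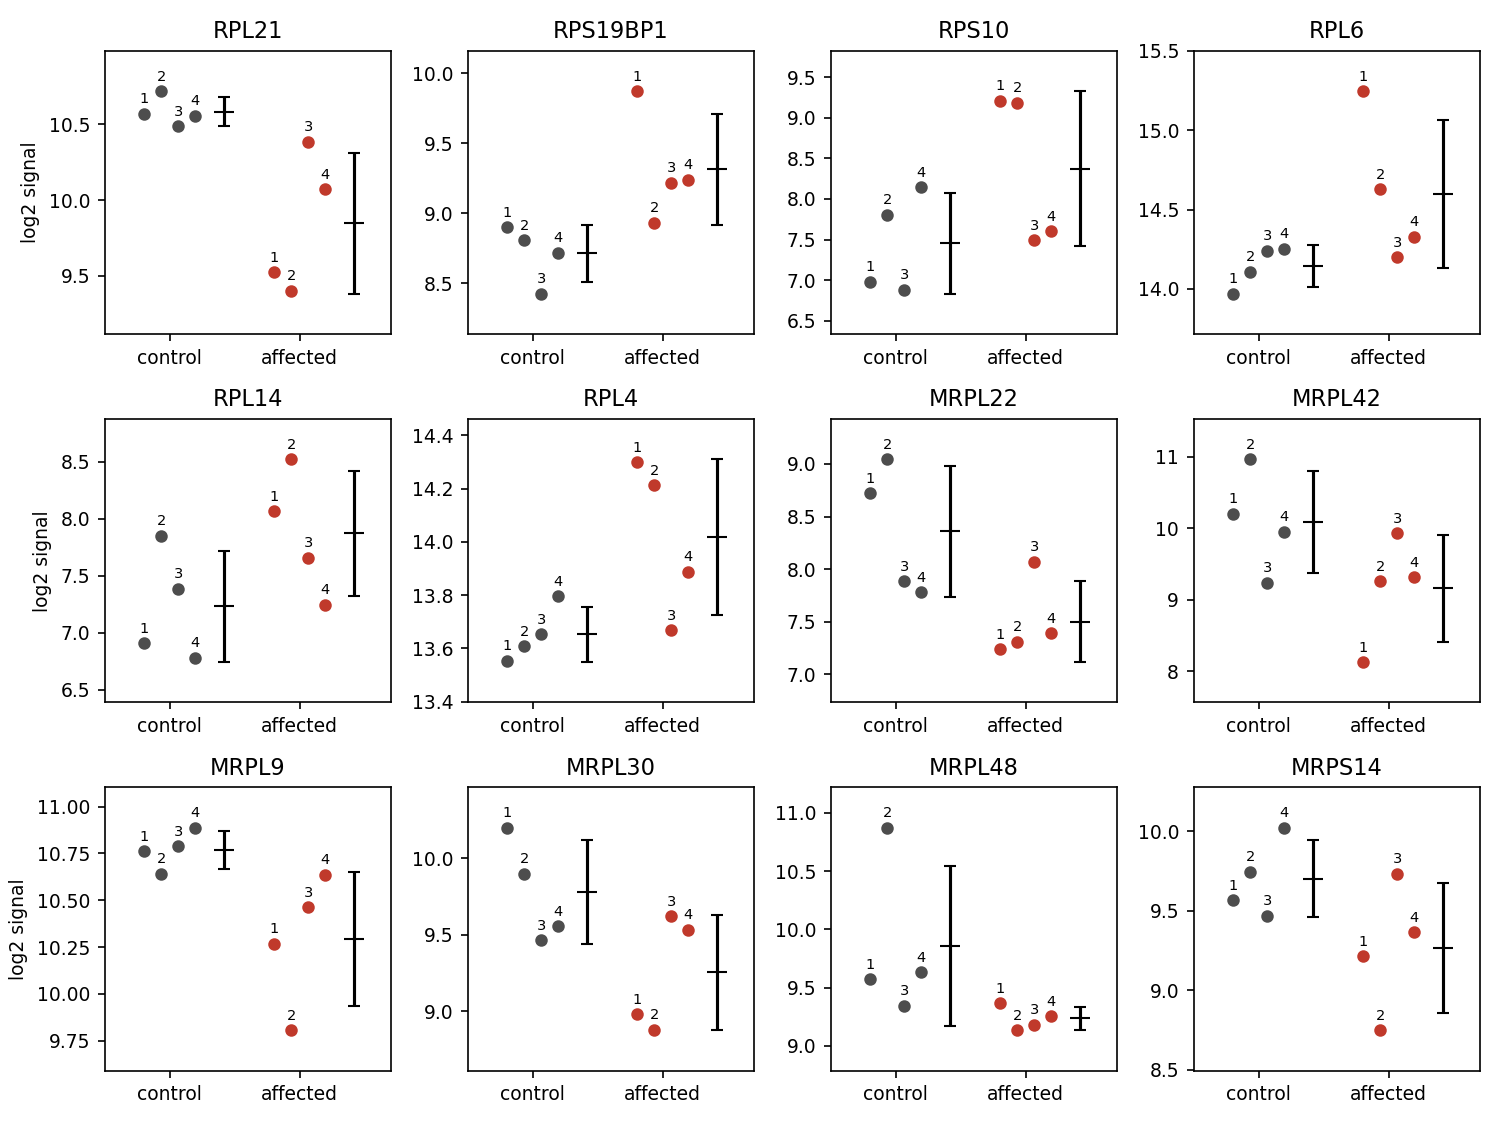
The panels show the log2 signal of each dog (numbered points, control grey and affected red) for the 6 genes with the smallest unadjusted p in each class, with the mean and SD of each group (n = 4) as a black bar beside it, and each panel has its own vertical scale. RPL21, RPS19BP1 and MRPL9 show no overlap between the groups, and affected 3 lies among or nearest to the controls in most other panels.

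Different probe sets for 1 gene often disagreed. Of 36 cytosolic genes with several tested probe sets, 18 had all differences on 1 side of 0 and 18 had them on both sides, and the range within a gene had a median of 0.46. Of 12 mitochondrial genes with several, 7 had 1 side and 5 both, with a median range of 0.27. The brightest probe set carried the suffix that marks probes shared with other transcripts or with similar sequences (_s_at or _x_at) in 42 of 65 cytosolic genes and 10 of 54 mitochondrial genes. Without such probe sets, 31 of 45 cytosolic genes were above 0 (median 0.13) and 36 of 48 mitochondrial genes below 0 (median -0.18).

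RPL17 had 8 tested probe sets, of which 7 were below 0. The brightest gave 0.19 ± 0.24 and was highest in affected 1 at 14.93. In 4 others, with differences from -0.48 to -0.61, every affected dog was below every control, and affected 2 was lowest with values between 12.39 and 12.91. In 3 of the 4 the unadjusted p was under 0.05, with adjusted p-values of 0.615 to 0.628 by limma. Over all tested probe sets 2.31% were lower without overlap, and 3.81% were lower at that unadjusted limit. Of all 154 tested cytosolic probe sets, 5 and 4 were lower by these limits. The 4 RPL17 probe sets all carry the suffix for shared sequence, so they are not separate measurements of the gene. The brightest carries it too, and the RPL17 probe set without it gave -0.38 ± 0.30. The choice of the brightest probe set therefore placed RPL17 among the genes above 0.

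RPL7A had the widest range. Its brightest probe set gave -0.15 ± 0.20, and the others -0.81 ± 0.48, 0.67 ± 0.38, 0.77 ± 0.52 and -0.26 ± 0.41. RPL6, at 0.46 for the brightest, had others at -0.18, -0.90 and -0.11. RPS19, the subunit to which RPS19BP1 binds, gave 0.11 ± 0.23 on the brightest, 0.42 ± 0.27 on the next and 1.14 ± 0.57 on a dim one. Some genes were of one sign throughout: all 7 probe sets of RPS16 were below 0, between -0.32 and -0.17, and all 7 of RPL29 above 0, between 0.013 and 0.92. Every RPS16 probe set and most of those of RPL29 carry the suffix for shared sequence, so they are not separate measurements either. In RPL15, 6 of 7 were below 0.

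**Figure D5:**
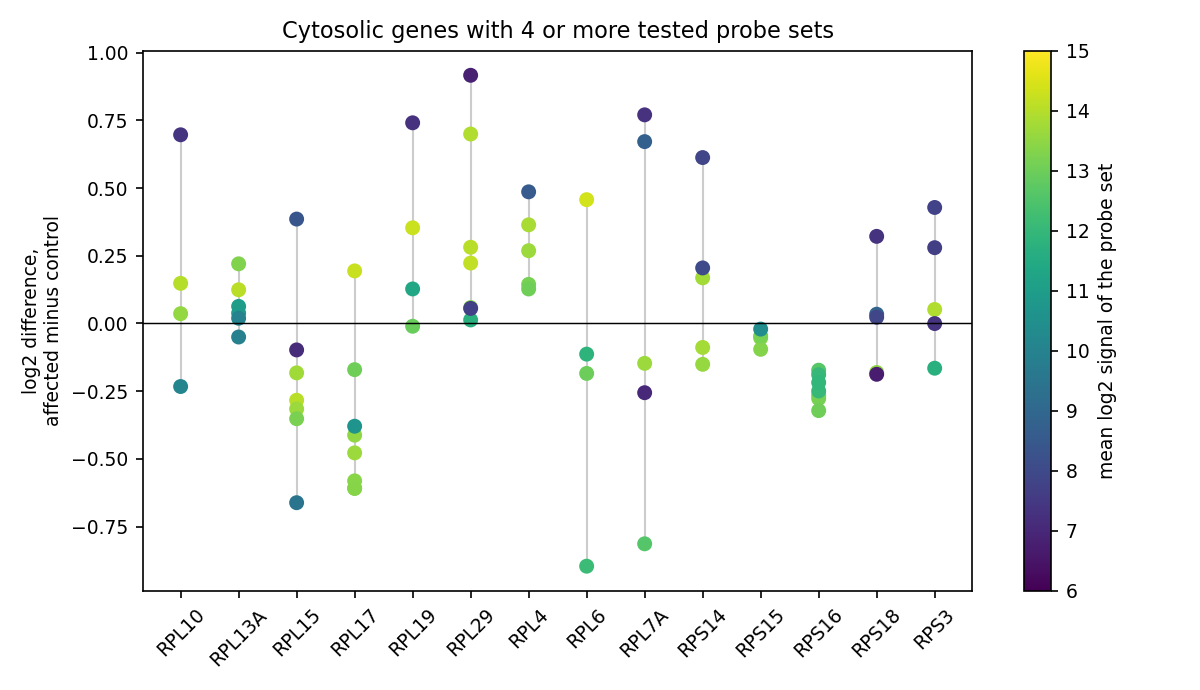
Each point is 1 tested probe set, with its log2 difference (affected minus control) on the vertical axis and its mean log2 signal as colour, for the 14 cytosolic genes with 4 or more tested probe sets. RPL17 has 1 probe set above 0 and 7 below, RPL7A spans -0.81 to 0.77, and all 7 probe sets of RPS16 lie below 0.

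Dim and bright cytosolic probe sets leaned differently. Over all 154 tested cytosolic probe sets, the 51 with a mean log2 signal under 10 had a median difference of 0.30, with 38 above 0. The 103 at 10 or more had a median of 0.059, with 60 above 0. Over every tested probe set on the array the medians in these brightness classes were 0.017 and -0.024.

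The genes that build ribosomes and work with them were described from lists. Of 48 listed genes of nucleolar ribosome biogenesis, which make and process ribosomal RNA and assemble the subunits, 28 were tested: 23 were above 0 with a median of 0.24, and 4 were higher and 0 lower at an unadjusted p of 0.05. Over all tested probe sets 50.5% were above 0, 4.02% higher and 3.81% lower by these limits. None of the 28 passed the adjusted test. The list's mean was 9.48, 9.25, 9.47 and 9.40 in the controls and 9.60, 9.50, 9.45 and 10.15 in the affected dogs. Affected 4 was highest for 22 of the 28, against 11.2% of all tested probe sets, so the dog that was high for nucleolar genes was not the one that was high for cytosolic ribosomal proteins. WDR43, a factor of small-subunit processing, was 9.89, 9.68, 9.48 and 9.35 in the controls and 10.46, 10.36, 9.82 and 10.82 in the affected dogs, a difference of 0.77 ± 0.27 with an adjusted p of 0.549 by limma. MRTO4, which acts in large-subunit assembly, was 6.50, 7.16, 6.86 and 6.65 in the controls and 8.51, 7.72, 6.80 and 8.85 in the affected dogs, a difference of 1.18 ± 0.43 with an adjusted p of 0.576 by limma.

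Of 39 cytosolic translation factors listed, 30 were tested, with 12 above 0, a median of -0.074, and 0 higher and 1 lower at the unadjusted limit, where all tested probe sets gave 4.02% and 3.81%. The lower one was EIF4B, a helper of the EIF4A helicase, at -0.88 ± 0.37 (adjusted p 0.614 by limma), with 8.13 and 7.73 in affected 1 and 2 against 8.88 to 9.83 elsewhere. EIF3A, the largest subunit of initiation factor EIF3, was 11.53, 11.72, 11.64 and 11.52 in the controls and 11.92, 12.06, 11.89 and 12.14 in the affected dogs. The groups did not overlap, as in 2.35% of all tested probe sets on the higher side, and the difference was 0.40 ± 0.19 (adjusted p 0.660 by limma).

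Of 31 mitochondrial translation factors and tRNA synthetases listed, 14 were tested, with a median of 0.027, and 0 higher and 1 lower at the unadjusted limit, against the same 4.02% and 3.81%. GATC, a subunit of the enzyme that makes glutaminyl-tRNA in mitochondria, was 9.58, 9.86, 9.30 and 9.53 in the controls and 7.88, 8.71, 9.13 and 8.89 in the affected dogs. Every affected dog was below every control, as in 2.31% of all tested probe sets, and the difference was -0.91 ± 0.30, with an unadjusted p of 0.0122 and an adjusted p of 0.542 by limma. LARS2, the mitochondrial leucyl-tRNA synthetase, differed by 0.52 ± 0.37. Of 17 mitochondrial ribosome assembly genes listed, 5 were tested, with a median of -0.13 and 0 past the limit on either side, among them ERAL1 at -0.51 ± 0.28 and MPV17L2 at -0.44 ± 0.37.

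The remaining lists were small. Of 10 ribosomal proteins that carry other symbols, 5 were tested, with a median of 0.061 and 0 past the limit. RACK1, which sits on the small subunit of the cytosolic ribosome, differed by -0.33 ± 0.29 and was lowest in affected 2, and CHCHD1, a mitochondrial small-subunit protein, by -0.33 ± 0.27. Of 14 regulators of mitochondrial and ribosomal genes listed, 8 were tested, with a median of -0.098 and 0 past the limit, including MYCN at -0.65 ± 0.39 and GABPA at -0.47 ± 0.29. Of 21 genes of MTOR signalling to the ribosome, 10 were tested, with a median of 0.093 and 0 past the limit. TSC2, an inhibitor upstream of MTOR, was 9.46, 9.37, 9.64 and 9.42 in the controls and 9.98, 10.12, 9.66 and 9.69 in the affected dogs, without overlap (2.35% of all tested probe sets on this side), and differed by 0.39 ± 0.22 (adjusted p 0.680 by limma). EIF4EBP1, the repressor of translation that MTOR inactivates, differed by 0.43 ± 0.24.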

How the data were processed

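The deposited values are MAS5 signals of 1 array per dog on a linear intensity scale, per the submitters' processing notes; the version is not given in the sources used here. Each array was brought to the same trimmed mean (2% left out at each end of 23913 rows), its values set to a floor of 34.2 (the 20th percentile, 5.10 on the log2 scale) and taken as log2. A probe set was tested where 4 of 8 arrays lay above their own 40th percentile. The 2 groups were fitted in limma 3.58.1 (R 4.3.3) by lmFit and trended eBayes, with two-sided tests adjusted by Benjamini-Hochberg over 14705 probe sets at 0.05. Each ± after a difference is the limma standard error. The fit was run on simulated data with known differences added. The simulated noise was independent between probe sets, so that run does not cover a shift shared by many genes of a dog.

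Gene names came from the platform annotation. For 114 of 121 members the identifier was found in RefSeq (UU_Cfam_GSD_1.0), with 0 symbols changed. No build is named, so no coordinates are given. The members, lists and tests were chosen with earlier results of these data known, so counts over a list are descriptions without a test. Named were, per class, the 6 genes of smallest p, the 3 of largest difference and the 3 of highest and lowest signal, some chosen by role, the 5 whose probe sets differ most, and 2 genes of smallest p per related list. RPL17, RPS16, RPL29, RPS12, RPL26, RPL18, RPS15, and the members listed as highest in affected 1, were picked once their values had been seen.

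The alternatives tried were median centring, quantile normalization, the deposited values unscaled, other filters, floors and a pseudocount, other variance priors, array weights, a replicate block, a heart muscle covariate, other choices of probe set, leaving out each dog, and leaving out RPS19BP1 and RPL18P (added after seeing the data).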

Additional observations from a re-analysis of the deposited data

Results flagged for a closer look

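In 9 of 110 groups of 4 dogs examined, 1 dog lay far from the other 3; chance alone flags about 1 in 20. Affected 1 was far above the other affected dogs for RPS28 (15.21 against a mean of 14.42) and RPS4X (10.36 against 9.26). Affected 2 was far below the other affected dogs for RPSA (12.73 against 13.61), RPL7A (13.25 against 13.69) and RACK1 (12.11 against 13.25). Control 2 was far below the other controls for RPSA (12.99 against 13.59) and far above them for MRPS12 (10.39 against 9.67). Affected 4 was far above the other affected dogs for GABPA (8.54 against 7.77) and for the mean of the mitochondrial genes (9.76 against 9.50). All are log2 signals.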

How the results depend on the processing

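In each of the 24 alternatives 0 members were called at an adjusted p of 0.05, and the smallest member adjusted p lay between 0.240 and 0.967 (limma). The unscaled values nearly repeat the main fit, as the scale factors were 0.999986 to 1.00001. The fits without a dog have fewer arrays and resolve less, so 0 calls there add little. The class medians were most sensitive to single dogs: leaving out each dog gave 28 to 49 cytosolic genes above 0, 28 to 45 mitochondrial genes below 0, medians of -0.017 to 0.23 and -0.29 to -0.0079, and a difference in the within-array measure of -0.41 to -0.13. At the unadjusted limit it gave 0 to 3 cytosolic genes higher, 0 to 2 lower and 0 to 3 mitochondrial genes lower. In the main fit 4.02% of all tested probe sets were higher and 3.81% lower by that limit. These shares were not counted under the alternatives, so the counts in this paragraph cannot be set against a background of their own. Cytosolic genes higher numbered 0 with quantile normalization, median centring, the floor at the 40th percentile, the replicate block, and without RPS19BP1 and RPL18P, and 2 with array weights and with the heart muscle covariate. Cytosolic genes lower numbered 2 with the covariate and 0 with the mean of all probe sets. Mitochondrial genes lower numbered 2 without a filter, with array weights and with the covariate, and 0 with the block. Without _s_at and _x_at probe sets, 31 cytosolic genes were above 0, of fewer tested.

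The replicate numbers were checked for pairing, and same-numbered dogs' deviations correlated at -0.12, 0.41, 0.022 and -0.013. Dogs of different numbers were not compared in this way, so the check cannot decide whether the numbers pair the dogs. The main fit does not pair them. Each number holds a control and an affected dog, so a replicate block cannot move the differences or the class medians of 0.14 and -0.19. It can change only the errors and p-values. With the block, 4 probe sets passed on the whole array, 0 of them members.

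Signs turned for single genes, and the cause was not tested. With quantile normalization RPS27A was -0.14 and RPLP1 -0.026. RPLP2 was -0.039 with median centring, -0.058 with array weights and -0.071 with the covariate. MRPS27 was 0.040 without a floor and 0.20 with the covariate. With the floor at the 40th percentile RPS24 was 0.15 and MRPS5 0.037. MRPS5 was 0.011 with weights and 0.19 with the covariate. With weights RPS27 was -0.025 and MRPS35 0.088. With the mean of all probe sets RPL6 was -0.18, RPS28 -0.11, RPSA 0.24, RPS4X -0.0092, MRPS12 0.064, RPL7A 0.045, CHCHD1 0.25 and RACK1 0.15. Without _s_at and _x_at probe sets RPS28 was -0.10 and RPL7A 0.77. Leaving out each dog gave RPSA -0.21 to 0.17, RPLP2 -0.21 to 0.31, RPS24 -0.96 to 0.15, RPS27 -0.080 to 0.22, RPS27A -0.033 to 0.32, MRPL33 -0.50 to 0.014, MRPS5 -0.34 to 0.17, MRPS18C -0.019 to 0.44, MRPS27 -0.75 to 0.45 and MRPS35 -0.45 to 0.073.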
